A study of Mus musculus with 36 samples.

Results

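The natriuretic peptide receptors Npr1, Npr2 and Npr3 were followed in the epididymal fat (white adipose tissue) of mice fed a high-fat diet freely or in restricted amount. They were read from the non-control probes that the array files name Npr1, Npr2 or Npr3, which are 7 of 41174 probes, for 3 of 28478 distinct gene names or identifiers. Npr1 had 1 probe, Npr2 had 3 and Npr3 had 3, and all 7 passed the filter on dim probes described here. RNA of 36 adult male C57BL/6J mice was measured, 1 mouse to an array. All mice first spent 3 weeks adapting, with free access to a purified high-fat diet in which fat gave 30% of the energy. The group t=0 (12 mice) was killed then, HF-AL (12 mice) kept free access to it for a further 12 weeks, and HF-DR (12 mice) got a ration of 70% of energy over those 12 weeks. The rationed diet was enriched in vitamins and minerals to offset the smaller intake. On each array the RNA of 1 mouse, labelled with the dye Cy5, competed with a pool of all samples labelled with Cy3, so each value is a log2 ratio to that pool, where 0 is the level of the pool.

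Natriuretic peptides are hormones best known from the heart and vessels that also act on fat cells. The receptors Npr1 (also called NPR-A) and Npr2 (NPR-B) carry a guanylyl cyclase inside the cell and answer ligand by making cGMP, the first for the atrial and B-type peptides and the second for the C-type peptide. In human fat cells cGMP and its kinase promote lipolysis, and in mouse fat they have been tied to a thermogenic programme. Npr3 (NPR-C) binds all these peptides, has no cyclase, takes its ligand into the cell for breakdown and can couple to inhibitory G proteins. Fat is a known site of high Npr3 expression, and mice without it have been described as lean.

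The probes were placed by the array files on mouse build mm8. The Npr1 probe lies on chr3 from 90541176 to 90541669, reverse strand. The Npr2 probes lie on the forward strand of chr4, and they are numbered here from the 5′ end of the gene. Npr2 probe 1 runs from 43653899 to 43654631, probe 2 from 43669454 to 43669513 and probe 3 from 43672118 to 43672177. The Npr3 probes lie on the reverse strand of chr15 and are numbered in the same way. Npr3 probe 1 runs from 11789913 to 11789972, probe 2 from 11789449 to 11789508 and probe 3 from 11784907 to 11784966. Npr1 and Npr2 probe 1 span 494 and 733 bases of genome although other probes span 60, as happens where a probe joins 2 exons. The files give no exon or UTR for a probe. The third probe was the brightest of both Npr2 and Npr3 and stands for its gene where a single probe is needed. No receptor probe was saturated on any array. Each was well above background on all 36 arrays except Npr1, which fell short on 1 HF-DR array.

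Between 45.24% and 86.55% of the spots on an array were well above background. The 12 mature adipocyte markers fixed for the tissue check were well above background on every array. HF-DR arrays 7, 8 and 9 stood apart through transcripts of the seminal vesicle, with a median log2 ratio of 6 such genes of -0.72, 6.01 and 5.29 against at most -2.81 on the other arrays. HF-AL arrays 5, 7 and 9 stood apart in the sperm tail gene Tekt1, at 1.60, 2.48 and 2.65 against at most 0.33 on the other HF-AL and t=0 arrays. Tekt1 read 0.66 to 2.11 on 11 HF-DR arrays, above every t=0 array, and -0.07 on HF-DR 8. Nearly the whole restricted group thus carried that signal, though none of it reached the level of HF-AL 7 or 9. The seminal vesicle genes on HF-AL 5, 7 and 9 had medians of -5.63 to -5.08, within the range of other arrays. Leaving out these 6 arrays (written here as without the 6 arrays) therefore removes arrays by a different gene in each group and does not remove Tekt1 from HF-DR. Results are given with and without them, and, as an alternative added after seeing the data, without HF-DR 7, 8 and 9 alone, which a single criterion marks. The arrays came on 21 slides, of which 3 held 1 array of each group, so differences were also taken within slides. Another 9 slides held a single array, HF-AL 1 to 3 and HF-DR 7 to 12. These arrays add nothing to those differences or to a difference fitted with slide as a block. With 1 dye orientation throughout, dye and sample cannot be told apart within an array, but every group carried the same orientation.

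Npr3 was far lower in HF-DR than in HF-AL or t=0. Its brightest probe, probe 3, read from -0.23 to 0.84 with a median of 0.29 on the HF-AL arrays. It read from -0.84 to 0.74 with a median of 0.37 on the t=0 arrays. On the HF-DR arrays it read from -4.07 to -1.19 with a median of -2.98. All 12 HF-DR arrays lay below the lowest array of the other groups. The mean of t=0 was 0.23 ± 0.47 (SD, n = 12), that of HF-AL 0.29 ± 0.35 (SD, n = 12) and that of HF-DR -2.89 ± 0.83 (SD, n = 12). The difference of HF-DR from HF-AL was -3.18 ± 0.23 (SE), a level 9.06-fold lower (limma, adjusted p = 1.3e-14). That was the 5th lowest difference among the 24706 probes tested. The background signal removed, its Cy5 brightness had a median of 38758 units in HF-AL and 4506 units in HF-DR.

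The other probes of Npr3 fell by a smaller amount. Npr3 probe 1 had a mean of -2.19 ± 0.75 (SD, n = 12) in HF-DR against 0.29 ± 0.32 (SD, n = 12) in HF-AL, a difference of -2.48 ± 0.21 (SE, limma, adjusted p = 8.1e-13). Npr3 probe 2 had a mean of -2.12 ± 0.69 (SD, n = 12) in HF-DR against 0.30 ± 0.33 (SD, n = 12) in HF-AL, a difference of -2.42 ± 0.19 (SE, limma, adjusted p = 1.7e-13). Neither probe had an HF-DR array that overlapped another group. A fall with no overlap was met by 6.74% of all probes between HF-DR and HF-AL and by 7.71% between HF-DR and t=0. The 3 probes ranked the arrays alike, with r of 0.92 to 0.957 over 36 arrays after group means were subtracted, though they share each array and 1 target transcript.

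**Figure D1:**
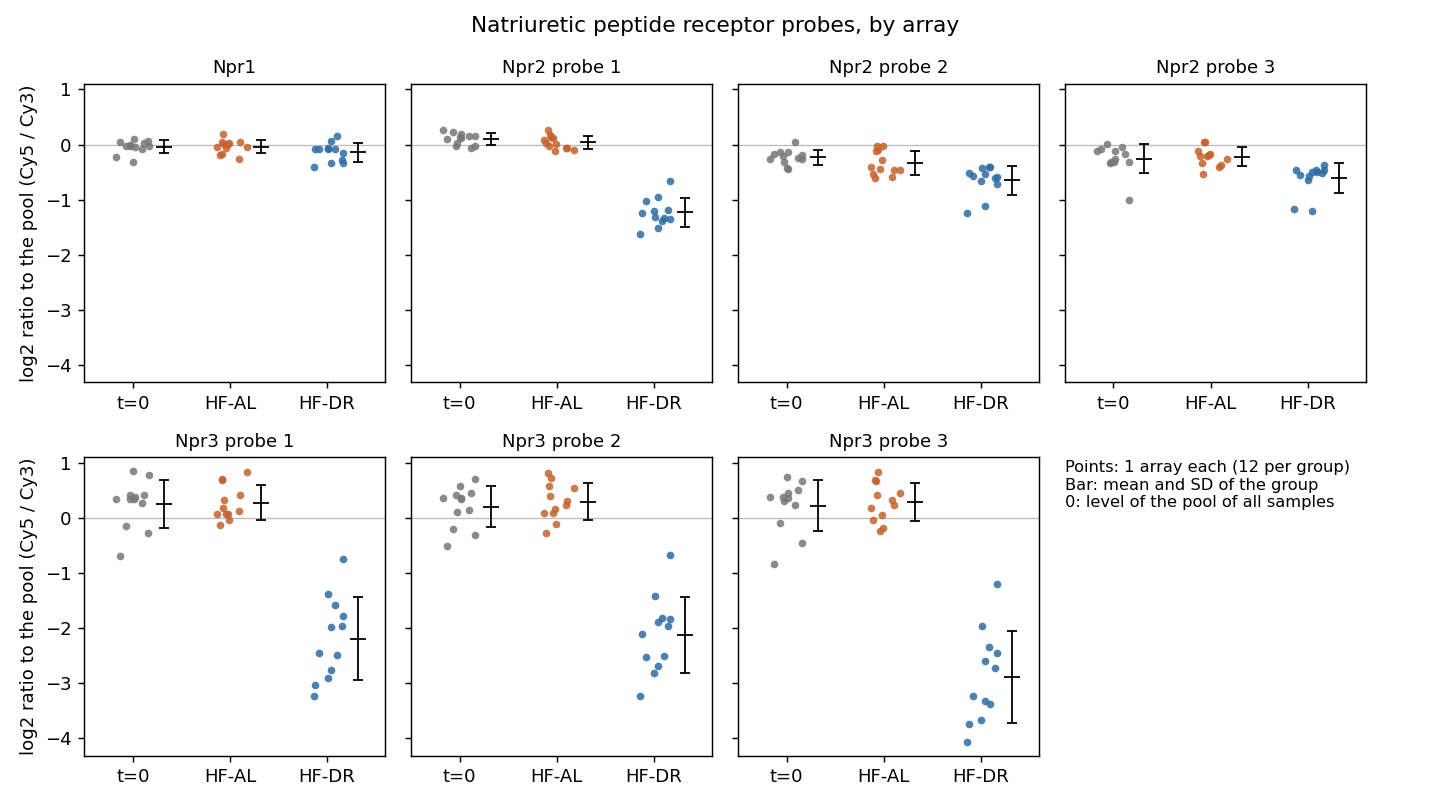
Log2 ratio to the pool (vertical axis) of each receptor probe on each array, 1 point per array, in t=0 (grey), HF-AL (orange) and HF-DR (blue), with the mean and SD of each group as a black bar. The 12 HF-DR arrays lie below all others for the 3 Npr3 probes and Npr2 probe 1, and among them for Npr1.

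The fall of Npr3 was uneven among the HF-DR arrays, each on a slide of its own within the group, so mouse and slide were not told apart. HF-DR 6 had the highest level of probe 3 at -1.19, followed by HF-DR 3 at -1.96, and HF-DR 8 the lowest at -4.07. HF-DR 6 was also the highest and HF-DR 8 the lowest for Npr3 probes 1 and 2. The SD of probe 3 was 0.83 in HF-DR against 0.35 in HF-AL. Among t=0 mice, t=0 3 had the lowest level of all 3 probes, at -0.84 for probe 3. Without the 6 arrays the difference of probe 3 between HF-DR and HF-AL was -2.96 (limma, adjusted p = 1.6e-12), and without HF-DR 7, 8 and 9 alone it was -2.92 (adjusted p = 1.1e-13). Within the 3 slides that held both groups it was -3.14 to -2.17, and with slide as a block -2.56 (adjusted p = 3.5e-05).

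A further probe outside the selection measures a cDNA clone from aorta and vein that the array files describe as natriuretic peptide receptor 3. It lies on chr15 from 11847703 to 11847762, reverse strand, 5′ of the others. It had a mean of -0.58 ± 0.31 (SD, n = 12) in HF-DR against 0.53 ± 0.28 (SD, n = 12) in HF-AL, a difference of -1.11 ± 0.12 (SE, limma, adjusted p = 1.9e-10). On 11 of 12 HF-DR arrays it lay below every HF-AL array, and the exception was HF-DR 6 at 0.15.

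Npr2 was lower in HF-DR as well, by an amount that depended on the probe. Npr2 probe 1, the 5′-most, read from -0.11 to 0.27 with a median of 0.03 in HF-AL and from -0.06 to 0.27 with a median of 0.12 in t=0. In HF-DR it read from -1.63 to -0.66 with a median of -1.28, with no overlap. Of all probes, 6.74% fell without overlap against HF-AL and 7.71% against t=0. The difference of Npr2 probe 1 between HF-DR and HF-AL was -1.27 ± 0.07 (SE), 2.41-fold lower (limma, adjusted p = 1.7e-17). It was -1.21 without the 6 arrays, -1.21 with slide as a block (adjusted p = 5.5e-08) and -1.40 to -1.21 within the 3 shared slides.

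The Npr2 probes nearer the 3′ end showed smaller differences. Probe 3, the brightest, read from -0.53 to 0.05 with a median of -0.21 in HF-AL, from -1.01 to 0.00 with a median of -0.22 in t=0, and from -1.20 to -0.37 with a median of -0.51 in HF-DR. Its groups overlapped, and 5 of 12 HF-DR arrays lay below every HF-AL array. The difference of HF-DR from HF-AL was -0.39 ± 0.10 (SE, limma, adjusted p = 5.7e-04), with a 95% interval from -0.59 to -0.20. Npr2 probe 2 differed by -0.31 ± 0.08 (SE, limma, adjusted p = 0.0017), with a 95% interval from -0.48 to -0.14. Neither interval reached that of Npr2 probe 1, from -1.42 to -1.13.

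The lowest HF-DR values of probes 2 and 3 came from HF-DR 8 and 9, at -1.25 and -1.11 for probe 2 and -1.17 and -1.20 for probe 3. These arrays carried the seminal vesicle transcripts, whose part in the values was not tested. Without the 6 arrays, Npr2 probe 3 differed by -0.27 (adjusted p = 0.0099) and probe 2 by -0.25 (adjusted p = 0.0030). Without HF-DR 7, 8 and 9 alone, probe 3 differed by -0.26 (limma, adjusted p = 0.0061) and probe 2 by -0.19 (adjusted p = 0.017). With slide as a block the call of both was lost, at -0.14 for probe 3 (limma, adjusted p = 0.287) and -0.17 for probe 2 (adjusted p = 0.123). Within the 3 shared slides probe 3 differed by -0.31 to 0.16 and probe 2 by -0.46 to 0.02. With the 3 probes averaged, Npr2 differed by -0.66 (limma, adjusted p = 1.3e-10). After group means were subtracted, Npr2 probes 1 and 3 correlated at r = 0.41 over 36 arrays and at r = 0.0936 over the other 30 arrays. In the RefSeq annotation of GRCm38 the end of Npr2 overlaps that of its neighbour Spag8, and the files do not show whether a probe lies in the overlap.

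**Figure D2:**
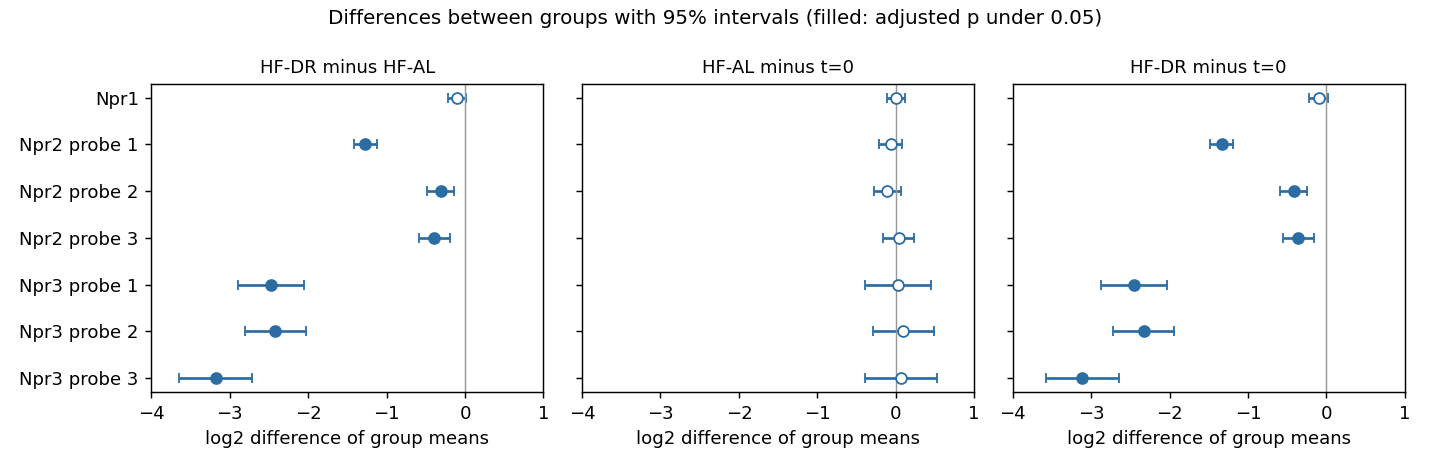
Difference of group means on the log2 scale (horizontal axis) for each receptor probe in the 3 comparisons, with 95% intervals, filled where the limma adjusted p was under 0.05. The Npr3 probes lie between -3.18 and -2.42 for HF-DR minus HF-AL, Npr2 probe 1 at -1.27, and Npr1 at -0.11 with an interval that holds 0.

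Npr1, the receptor of the atrial and B-type peptides, did not pass the test. It read from -0.26 to 0.18 with a median of -0.02 in HF-AL, from -0.32 to 0.09 with a median of -0.03 in t=0 and from -0.41 to 0.16 with a median of -0.08 in HF-DR. The groups overlapped. The difference of HF-DR from HF-AL was -0.11 ± 0.06 (SE, limma, adjusted p = 0.110), with a 95% interval from -0.22 to 0.01. Npr1 was dim, with a median Cy5 signal of 89.7 units over background in HF-AL against 2078 for Npr2 probe 3, and the offset of 50 added before logs shrinks differences at that level. On the processed signals of the scanner software, taken without this offset, Npr1 differed by -0.35 (limma, adjusted p = 0.0259). With an offset of 10, chosen after seeing the data, it differed by -0.17 (adjusted p = 0.0829). HF-DR 8, 6 and 9 had its lowest values, at -0.41, -0.34 and -0.33. HF-DR 8 and 9 carried seminal vesicle transcripts, whose part in the value was not tested. Without the 6 arrays the difference was -0.11 (adjusted p = 0.121), and without HF-DR 7, 8 and 9 alone -0.06 (adjusted p = 0.344).

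Against these counts, 63.5% of the 24706 probes tested differed between HF-DR and HF-AL, and 33.1% were lower in HF-DR. The 3 Npr3 probes and 3 Npr2 probes were all called lower, 6 of 7, but at this background a call alone says little. Their sizes are better read against all probes, where the median difference was -0.01. Npr3 probes 1 and 2 ranked 18th and 20th from the lowest, Npr2 probe 1 ranked 243rd, and Npr2 probes 3 and 2 and Npr1 ranked 3792nd, 4954th and 9678th.

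**Figure D3:**
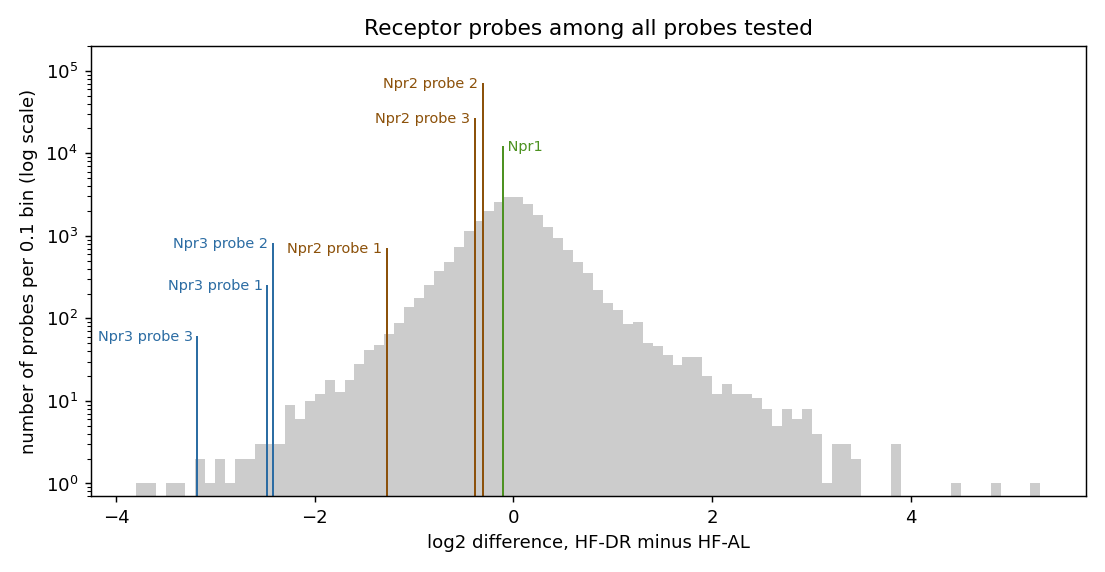
Number of probes (vertical axis, log scale) in each 0.1 bin of the log2 difference between HF-DR and HF-AL (horizontal axis) for the 24706 probes tested, with the receptor probes as vertical lines whose heights carry no value. The Npr3 probes sit in the far left tail, Npr2 probe 1 at its shoulder, and the other Npr2 probes and Npr1 in the body.

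The further weeks of free feeding did not move the receptors past the threshold. Between HF-AL and t=0, where 0.676% of all probes passed, none of the 7 receptor probes did by limma at an adjusted or an unadjusted p under 0.05, the latter met by 13.1% of all probes. Npr3 probe 3 differed by 0.07, with a 95% interval from -0.40 to 0.53. Npr2 probe 1 differed by -0.06, with an interval from -0.21 to 0.08, and Npr1 by 0.01, with an interval from -0.11 to 0.12.

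HF-DR also lay below t=0, where 30.3% of all probes were called lower and 29.9% higher. That comparison shares the HF-DR arrays with the one against HF-AL and is not independent of it. Npr3 probe 3 differed by -3.11 ± 0.23 (SE, limma, adjusted p = 2.2e-14), Npr2 probe 1 by -1.33 ± 0.07 (adjusted p = 4.0e-18) and Npr2 probe 3 by -0.35 ± 0.10 (adjusted p = 0.0016). The difference of Npr2 probe 3 was -0.16 with slide as a block (adjusted p = 0.169) and -0.23 without the 6 arrays (adjusted p = 0.0191). Npr1 differed by -0.10 ± 0.06 (SE, limma, adjusted p = 0.135). On the 6 slides that held both groups Npr3 probe 3 differed by -4.42 to -0.35, and the smallest gap was on the slide that held HF-DR 6 and t=0 3. In order of levels, HF-DR lay below the other groups for the 3 Npr3 probes and Npr2 probe 1, and HF-AL and t=0 were not separated beyond their spread. For Npr2 probe 3 the place of HF-DR depended on the slide term. Npr2 probe 2 differed from t=0 by -0.42 (limma, adjusted p = 5.7e-05) and kept that call in every alternative tested (adjusted p of at most 0.00697). Its call against HF-AL depended on the slide term. For Npr1 no order was set.

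The clearance to signalling ratio was taken on each array as the level of Npr3 probe 3 over that of Npr1 or of Npr2, each relative to the pool. It is described here without a test, since the members were chosen with results known. On the log2 scale, Npr3 over Npr1 had a mean of 0.27 ± 0.53 (SD, n = 12) for t=0, of 0.33 ± 0.36 (SD, n = 12) for HF-AL and of -2.75 ± 0.86 (SD, n = 12) for HF-DR. The HF-DR arrays ran from -3.66 on HF-DR 8 to -0.85 on HF-DR 6, and the HF-AL arrays from -0.20 to 0.87, so these groups did not overlap. The t=0 arrays ran from -0.89 to 1.06, and t=0 3 at the low end reached below HF-DR 6. The difference of HF-DR from HF-AL in the log2 ratio was -3.07 ± 0.27 (SE), or 8.43-fold lower. Npr3 probe 3 fell the most of its gene's probes. Ratios with Npr3 probes 1 and 2, which fell less (-2.48 and -2.42), were not taken. Npr1 was dim and its differences are shrunk by the offset, so this ratio mostly follows Npr3 probe 3.

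Npr3 over Npr2 probe 3 was lower in HF-DR too. Its mean was 0.49 ± 0.49 (SD, n = 12) for t=0, 0.52 ± 0.40 (SD, n = 12) for HF-AL and -2.27 ± 0.73 (SD, n = 12) for HF-DR, with HF-DR 6.91-fold below HF-AL. Taken over Npr2 probe 1 the gap was smaller, with -1.65 ± 0.71 (SD, n = 12) in HF-DR against 0.25 ± 0.34 (SD, n = 12) in HF-AL, or 3.75-fold. Both had HF-DR arrays clear of HF-AL arrays, with t=0 3 again reaching into the HF-DR range. Over Npr2 probe 1, t=0 4 did so too, at -0.61 against -0.53 on HF-DR 6. HF-AL and t=0 differed by 0.06 ± 0.19 (SE) for Npr3 over Npr1 and by 0.03 ± 0.18 (SE) for Npr3 over Npr2 probe 3. For the ratio over Npr1 the difference of HF-DR from HF-AL averaged -2.46 within the 3 shared slides, and it was -2.85 without the 6 arrays.

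**Figure D4:**
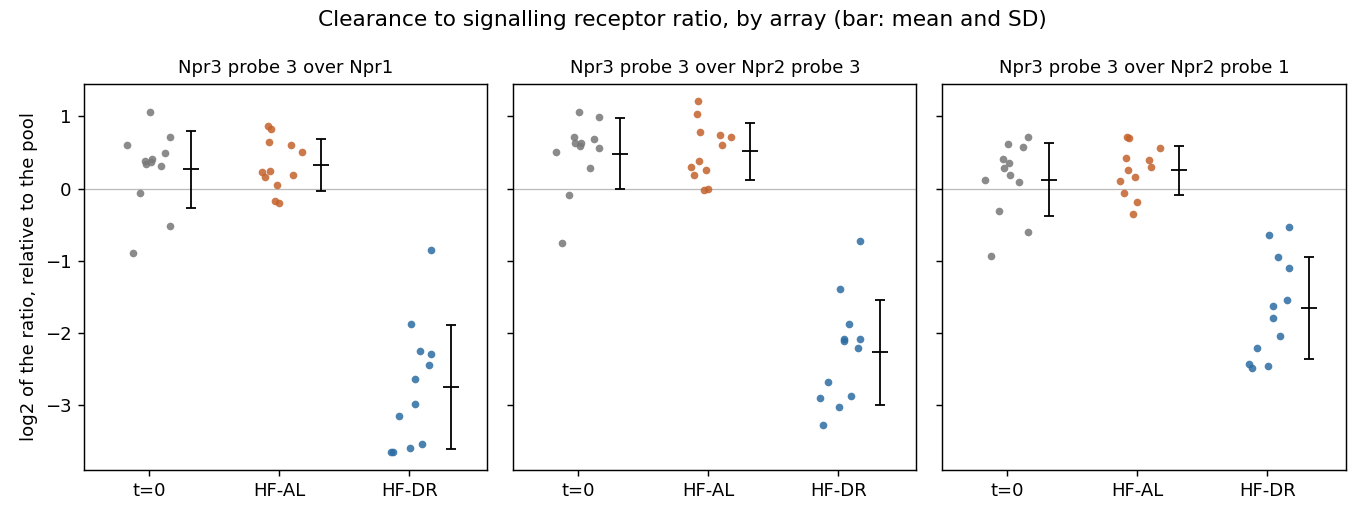
Log2 of Npr3 probe 3 over Npr1, over Npr2 probe 3 and over Npr2 probe 1 (vertical axis, relative to the pool) on each array, 1 point per array, with the mean and SD of each group as a bar. The HF-DR arrays centre on -2.75, -2.27 and -1.65, below every HF-AL array in each panel.

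Of 9 relations between the brightest probes, each over 12 arrays of 1 group, none passed after Benjamini-Hochberg adjustment of the permutation p. In HF-DR, Npr1 and Npr2 correlated at r = 0.562 (permutation p = 0.0622, adjusted 0.309) and rho = 0.049 (permutation p = 0.886, adjusted 0.94), and r was 0.512 without the arrays farthest from the median of Npr1, HF-DR 6 and 8. In HF-DR, Npr3 and Npr2 correlated at r = 0.506 (permutation p = 0.0967, adjusted 0.309) and rho = 0.441 (permutation p = 0.154, adjusted 0.94), and r fell to 0.293 without HF-DR 6 and 8. Npr3 and Npr1 read r = -0.479 in t=0 (permutation p = 0.103, adjusted 0.309) with rho = -0.315 (permutation p = 0.319, adjusted 0.94), and r = -0.303 without t=0 3 and 4. The other 6 had r from -0.175 to 0.422. Among them r of Npr3 and Npr2 in t=0 turned from 0.183 to -0.652 without t=0 3 and 4. Where the 6 arrays were left out, r of Npr1 and Npr2 in HF-DR was -0.236.

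The ligands were near the limit of detection in this fat depot. Nppa, the atrial peptide, was well above background on 6 t=0, 6 HF-AL and 4 HF-DR arrays, and Nppc, the C-type peptide, on 2, 1 and 4, so neither was tested. Nppb, the B-type peptide, was above background on 9 t=0, 5 HF-AL and 5 HF-DR arrays and so entered the test through t=0. HF-DR minus HF-AL was 0.10 ± 0.04 (SE, limma, adjusted p = 0.0327), a difference between groups that were mostly not well above background. That call was lost under 7 alternatives, among them the fit without the 6 arrays (adjusted p = 0.157), so no rise of Nppb is read from it. Corin, which cleaves the atrial precursor, did not pass the filter.

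Of 50 pathway genes listed beside the receptors, 33 were measured, each read from its brightest probe, and 8 were called higher and 10 lower in HF-DR than in HF-AL, or 24.2% and 30.3%. Those shares were below the 30.4% and 33.1% of all probes, and the median difference was -0.13. Apart from Nppb, 7 of 32 were called higher. Without the 6 arrays 8 were called higher and 14 lower, or 24.2% and 42.4%, beside 32.1% and 33.1% of all probes in that fit. Without HF-DR 7, 8 and 9 alone the counts were 7 and 13, or 21.2% and 39.4%, beside 31.9% and 34.5% of all probes. Among processing and degradation genes, the precursor-cleaving protease Furin rose by 0.44 ± 0.07 (SE, adjusted p = 2.7e-06) and the related protease Pcsk6 fell by 0.94 ± 0.13 on the log2 scale (adjusted p = 7.5e-08), while its other probe read -0.24 and did not pass. Neprilysin (Mme), a peptidase that degrades natriuretic peptides, rose by 0.58 ± 0.11 (adjusted p = 1.7e-05). Insulin-degrading enzyme (Ide), which also cleaves them, rose by 0.81 ± 0.06 (adjusted p = 7.8e-14). Dpp4, the third peptidase listed, read -0.20 ± 0.19 and did not pass.

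Of 6 genes measured that make or receive cGMP beside the receptors, 3 were called, where 63.5% of all probes were. Gucy1a1, a subunit of the nitric oxide receptor, fell by 0.41 ± 0.15 on the log2 scale (adjusted p = 0.016), a call lost with slide as a block (adjusted p = 0.341) and without HF-DR 7, 8 and 9 alone (adjusted p = 0.130). Its partner Gucy1b1 read -0.13 ± 0.08 and did not pass. Gucy2c, the intestinal guanylin receptor and dim here, rose by 0.18 ± 0.06 (adjusted p = 0.0089). Its call was lost with the background fitted on all spots (adjusted p = 0.062) and without most of the arrays with specks (adjusted p = 0.0817). The cGMP kinase gene Prkg1 fell by 0.15 ± 0.05 on the log2 scale (adjusted p = 0.0101), and without the 6 arrays read -0.11 (adjusted p = 0.0652). Irag1 and Vasp, targets of that kinase, read -0.26 ± 0.12 and -0.10 ± 0.06 and did not pass. The other Irag1 probe, at -0.22, was called lower.

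Of 9 cGMP phosphodiesterases and exporters, 2 fell and none rose in limma by the brightest probe of each. Of all probes 33.1% were called lower and 30.4% higher. Other probes disagreed for Abcc5, with 1 called higher (0.35) and 1 lower (-0.24), and for Pde1a, with 1 of 4 called lower (-0.42). Pde1b, a calcium-dependent enzyme, fell by 0.63 ± 0.08 on the log2 scale (adjusted p = 4.1e-08). Pde3a, which cGMP inhibits, fell by 0.56 ± 0.06 (adjusted p = 2.7e-10). Pde3b, the main form in fat cells, read -0.12 ± 0.12, and the cGMP-selective Pde5a and Pde9a read -0.01 ± 0.04 and -0.14 ± 0.12, none of which passed. Against t=0 the same fit also called Pde2a lower by 0.21 ± 0.06 (adjusted p = 0.0022), Vasp lower by 0.14 ± 0.06 (adjusted p = 0.032) and the exporter Abcc4 higher by 0.19 ± 0.07 (adjusted p = 0.0207). In that comparison 8 of the 33 genes rose and 11 fell, or 24.2% and 33.3%, beside 29.9% and 30.3% of all probes. The calls of Vasp and Abcc4 were lost without the 6 arrays (adjusted p = 0.0675 and 0.0563).

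Of 4 genes listed for the coupling of the clearance receptor, 2 fell, where 33.1% of all probes were called lower. The inhibitory G protein gene Gnai1 fell by 0.83 ± 0.13 on the log2 scale (adjusted p = 4.6e-07), with all 4 of its probes called lower, and Gnai2 fell by 0.45 ± 0.08 (adjusted p = 1.1e-05). Gnai3 read -0.14 ± 0.08 and the phospholipase gene Plcb3 -0.17 ± 0.10, and neither passed. Lipolytic and thermogenic targets moved both ways, with 3 of 8 up and 3 down, beside 30.4% and 33.1% of all probes. Abhd5, the coactivator of the first triglyceride lipase, rose by 1.54 ± 0.13 (adjusted p = 1.4e-12) on its brightest probe and by 0.45 on the other, also called. That lipase, Pnpla2, read 0.06 ± 0.14 on its brightest probe, which did not pass, and 0.33 on the other, which was called higher. Ppargc1a, a coactivator of mitochondrial genes, rose by 1.18 ± 0.15 (adjusted p = 1.8e-08), and the kinase gene Mapk14 by 0.31 ± 0.06 (adjusted p = 5.0e-05).

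Hormone-sensitive lipase (Lipe) fell by 0.63 ± 0.12 on the log2 scale (adjusted p = 2.8e-05), and the lipid droplet coat gene Plin1 by 0.91 ± 0.11 (adjusted p = 5.0e-09). The transcription factor gene Creb1 fell by 0.27 ± 0.05 (adjusted p = 1.6e-05) on its brightest probe, while 2 of its 3 probes were called higher, at up to 0.25. Ucp1, the uncoupling protein of brown fat, was well above background on 3 t=0, 0 HF-AL and 6 HF-DR arrays and was not tested. Between HF-AL and t=0 none of the 33 genes passed in limma, where 0.676% of all probes did.

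**Figure D5:**
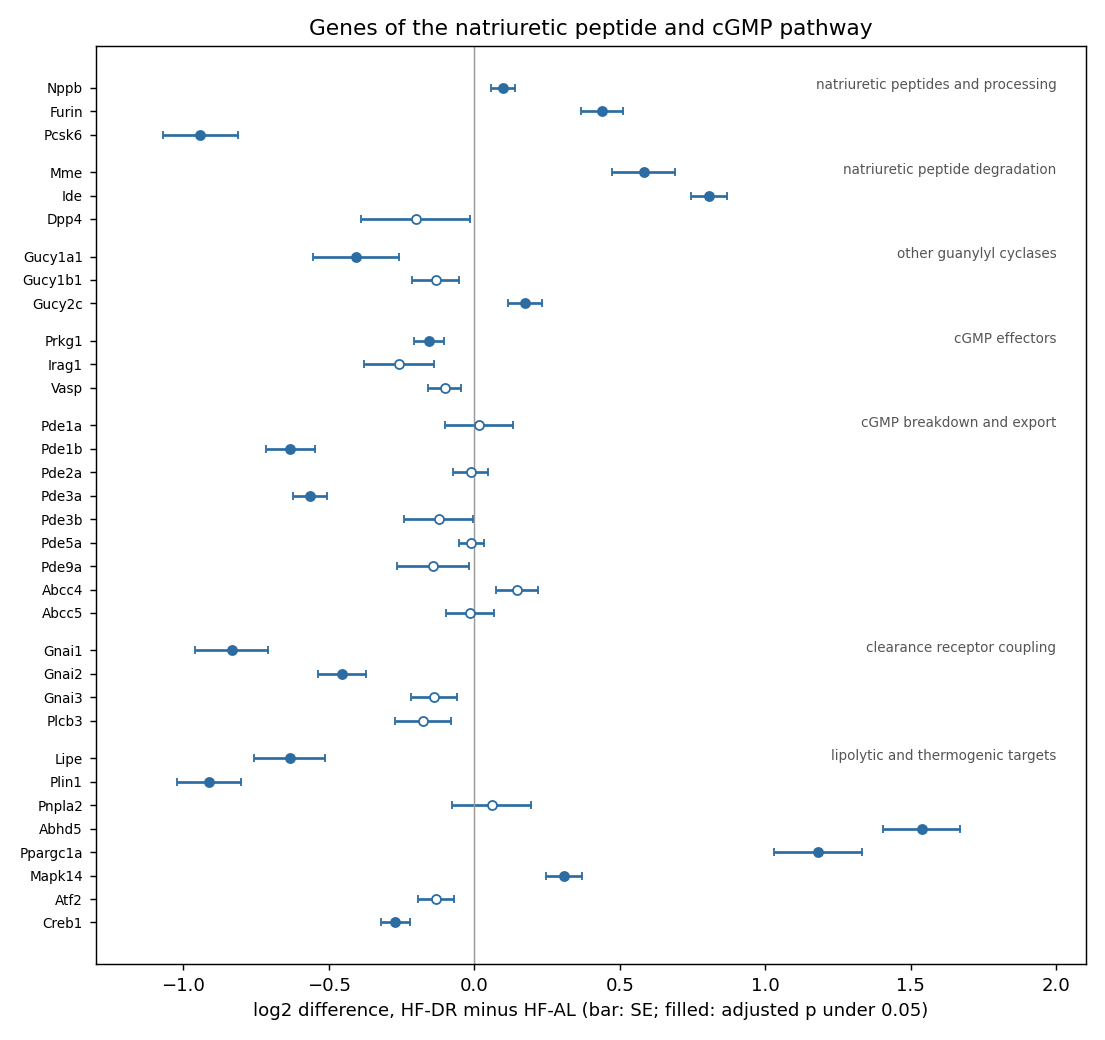
Log2 difference between HF-DR and HF-AL (horizontal axis, bars are SE) of the 33 pathway genes measured, each by its brightest probe, grouped by list and filled where the limma adjusted p was under 0.05. Abhd5 at 1.54 and Ppargc1a at 1.18 are the highest, and Pcsk6 at -0.94 and Plin1 at -0.91 the lowest, all nearer 0 than Npr3.

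Whole tissue was measured, so fewer cells of a type and less RNA per cell cannot be told apart. Counts of called markers stand beside 30.4% of all probes called higher and 33.1% called lower in HF-DR against HF-AL. Of 12 mature adipocyte markers, 1 rose and 7 fell. The glucose transporter Slc2a4 rose by 1.25 ± 0.12 (SE), while the droplet proteins Plin4 and Plin1 read -2.11 ± 0.14 and -0.91 ± 0.11. Within the 3 shared slides Plin1 averaged -0.49. The mean log2 ratio of that list ran from -0.15 to 0.42 on HF-AL arrays and from -1.22 to 0.05 on HF-DR arrays. Of 12 preadipocyte and fibroblast markers 11 fell, with Gsn at -2.12 ± 0.11 and Col1a1 at -2.05 ± 0.11. Their mean ran from 0.08 to 0.27 in HF-AL and from -1.46 to -0.69 in HF-DR, without overlap. Of single probes 6.74% fell without overlap, and no such share was taken for means of lists. All 9 macrophage markers fell, Lyz2 by 1.37 ± 0.13 and Csf1r by 0.95 ± 0.10 on the log2 scale, and their mean ran from -0.17 to 0.38 in HF-AL and from -1.35 to -0.39 in HF-DR.

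The same shares of all probes, 30.4% higher and 33.1% lower, stand beside the counts that follow. Of 11 endothelial markers 1 rose (Emcn, by 0.23 ± 0.09) and 6 fell, with Ramp2 at -0.92 ± 0.12 and Esam at -0.41 ± 0.09. Ramp2 averaged -0.45 within the 3 shared slides, and the call of Emcn was lost without most of the arrays with specks (adjusted p = 0.0991). Their mean ran from -0.26 to 0.16 in HF-AL and from -1.01 to -0.11 in HF-DR. Of 9 mural cell markers 2 rose and 3 fell, with Cspg4 up by 1.25 ± 0.12 and Rgs5 and Pdgfrb at -1.12 ± 0.11 and -0.60 ± 0.08. The rise of Des, 0.55 ± 0.23 on all arrays, was 0.12 without the 6 arrays (adjusted p = 0.0662). The mean of the list ran from -0.80 to 0.07 in HF-AL and from -0.84 to 0.99 in HF-DR. Of 9 mesothelial markers 6 fell and none rose in limma, Msln by 1.32 ± 0.17 and Gpm6a by 0.83 ± 0.17 on the log2 scale. Their mean ran from -0.49 to 0.40 in HF-AL and from -0.94 to 0.03 in HF-DR. Of 6 male tract markers measured 4 rose, Pate4 by 2.98 and Svs3a by 2.11 ± 0.81 (SE), and neither passed without the 6 arrays named (adjusted p = 0.354 and 0.226). The part of these cell types in the receptor levels was not tested.

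Among 13248 other named genes, those that varied most like each receptor were found by Pearson r over the 33 to 36 arrays with a value after group means were subtracted. This is a description, since arrays share slides and RNA quality. No r of these genes was taken without the arrays that carried seminal vesicle transcripts. Nearest to Npr3 probe 3 were Sncg, a synuclein of fat cells (r = 0.835), Tdrd7 (r = 0.83), Prxl2b (r = 0.826), the tubulin Tuba1a (r = 0.82) and the small heat shock protein Cryab (r = 0.819). Of these, Sncg, Tdrd7, Prxl2b and Tuba1a also fell in HF-DR, to differences of -2.96 ± 0.14, -1.07 ± 0.07, -1.42 ± 0.12 and -2.08 ± 0.22 from HF-AL, while Cryab read -0.02 ± 0.13. Of all probes 33.1% were called lower. With slide means also subtracted, Tdrd7 and Tuba1a stood highest, at r = 0.929 and 0.925. On the 9 slides that held 1 array that step leaves 0. Any r after it, here and for Npr1 and Npr2, rests on fewer arrays and is not comparable with r before it. Opposite to Npr3 ran Ddrgk1 (r = -0.686), Dlg3 (r = -0.668) and Cadps2 (r = -0.655), and Cadps2 rose by 1.92 ± 0.14.

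Nearest to Npr2 probe 3 were Trak1 (r = 0.875), the kinase Jak3 (r = 0.832), the transcription factor Ets1 (r = 0.826), A930033H14Rik (r = 0.799) and Bola3 (r = 0.79). Opposite ran Pycard (r = -0.765), Gzma (r = -0.762) and Ly96 (r = -0.759), and Ly96 read r = -0.405 with slide means subtracted. Nearest to Npr1 were the transcription factor Elk4 (r = 0.752), the lipopolysaccharide receptor Cd14 (r = 0.749), the fatty acid oxidation enzyme Hadh (r = 0.737), Fmo1 (r = 0.733) and Tgoln1 (r = 0.726). With slide means also subtracted these genes were no longer its nearest. They read r of 0.672 to 0.765, at ranks 63 to 269 from the highest of 13248. Opposite ran Tm9sf1 (r = -0.748), Nsmf (r = -0.744) and Wipi2 (r = -0.742). The genes nearest to Npr3, other than Cryab, were lower in HF-DR than in HF-AL as Npr3 was, where 33.1% of all probes were called lower. Those nearest to Npr2 did not share its direction throughout, as Trak1 rose by 0.58 ± 0.11 and Ets1 fell by 0.39 ± 0.13 on the log2 scale.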

How the data were processed

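The authors deposited the scans of 36 arrays (Agilent 4x44k, mouse) and a value table. The submitters' processing notes name Agilent Feature Extraction, version 9.5.3.1. The intensity values used, mean spot and median background signals of both dyes, are unnormalized per the file headers, and the processed intensities that the authors obtained with the same software served as an alternative. The deposited log2 values of the series matrix (22510 probes, medians of 9.26 to 9.29 per array) followed the Cy5 signal (r of at least 0.98), so their scale and direction are those of Cy5, while their centring is not stated in the sources used here.

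Spots with a net signal below -50 in either dye, called specks here (84 over 12 arrays), were left out. An alternative fit left out most of the arrays with specks. These were t=0 10 and 12, HF-AL 1, 8, 11 and 12, and HF-DR 1, 2, 11 and 12. That fit kept HF-DR 5 and 6, with 2 and 11 specks. Background was corrected by normexp (offset 50), dyes were balanced by loess with control spots and outlier flags at weight 0, and flagged spots were left out (limma 3.58.1, R 4.3.3). Spots of a probe were averaged, and a probe was kept if well above background in Cy5 on at least 9 arrays of 1 group (24706 of 41174). Single-probe ratios limit precision to the number of arrays. One limma fit over all arrays gave each group's mean, with Benjamini-Hochberg adjustment over all probes kept and a threshold of 0.05, and was tested on simulated data. Intervals of 95% use the t distribution. Mice are separate animals per the labels. Symbols came from RefSeq (GRCm38.p6) by accession for 24375 probes and otherwise from the files.

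The members, gene lists and alternatives were chosen with earlier results of these data known. The genes named were all probes of the receptors, up to 4 passing genes per direction of each pathway list, up to 2 of each marker list, the 3 ligands, and the 5 genes most like and 3 most unlike each receptor. Relations used 100000 permutations, two-sided. Pathway genes that did not pass, Tekt1 and the arrays left out for male tract genes were chosen after their values were seen.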

Additional observations from a re-analysis of the deposited data

How the results depend on the processing

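Over the 14 to 16 alternatives with a test, the Npr3 probes and Npr2 probe 1 kept their direction and call in HF-DR against HF-AL and against t=0. Npr3 probe 3 ran from -3.28 to -2.56 against HF-AL and Npr2 probe 1 from -1.60 to -1.02. On the processed signals Npr1 passed in HF-DR against HF-AL (-0.35) and against t=0 (-0.34). Scaling between arrays lost Npr2 probe 2 against HF-AL (-0.16, adjusted p = 0.0536) and Npr2 probe 3 against t=0 (-0.18, adjusted p = 0.122). With slide as a block Npr2 probe 2 (-0.17) and probe 3 (-0.14) were lost against HF-AL and probe 3 against t=0 (-0.16). The mean of differences within slides was -0.15 for Npr2 probe 3 and -2.58 for Npr3 probe 3 against HF-AL, and -1.79 for Npr3 probe 2 against t=0. The cause was not tested.

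Between HF-AL and t=0, 167 probes passed. The count was 98 with the background fitted on all spots (83 higher), 328 on processed signals (122 higher) and 725 scaled between arrays. It was 102 on Cy5 alone, 105 without a filter, 327 without the 6 arrays and 550 without HF-DR 7, 8 and 9 alone. Without most of the arrays with specks it was 99 (72 higher). It was 170 in the series matrix (65 higher) and 115 with 1 probe per gene (77 higher). The unpassed differences of the receptors there changed sign with slide as a block for Npr1 (-0.0471), Npr2 probe 3 (-0.0162) and Npr3 probes 1 and 3 (-0.0190 and -0.0613). They did so in the series matrix for Npr3 probes 1 and 3 (-0.0342 and -0.0132) and with probes averaged for Npr2 (-0.0446). Without most of the arrays with specks, Npr3 probe 1 did so (-0.0438).

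The r of Npr3 and Npr1 in HF-DR was 0.0433 with the background fitted on all spots and 0.13 on processed signals, and in HF-AL it was -0.0517 without the 6 arrays. In the series matrix, Npr3 and Npr2 in HF-AL read 0.14, and Npr1 and Npr2 in HF-AL 0.779 (permutation adjusted p = 0.0325). With slide means subtracted Npr3 and Npr2 read 0.931 in HF-AL and -0.303 in HF-DR, and Npr1 and Npr2 -0.244 in HF-DR. Each slide mean was taken over whichever groups the slide held, so differences between groups enter these values. No relation within a group is read from them. Without the 6 arrays, or HF-DR 7, 8 and 9 alone, r of Npr1 and Npr2 in HF-DR was -0.236. Averaging probes turned Creb1 to 0.0755 (HF-DR against HF-AL) and 0.10 (against t=0). Des read -0.00421 against HF-AL with slide as a block and -0.00648 within slides against t=0, and Nppb -0.27 on Cy5 alone against t=0.

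By the rule used, which asks every pair to correlate over 0.1, the replicate numbers were not taken to pair the mice. Deviations from the group means of same-numbered HF-DR and HF-AL arrays correlated at -0.118 to 0.391, over 0.1 in 9 of 12 pairs, against 2 of 12 for HF-AL and t=0 and 0 of 12 for HF-DR and t=0. Of the HF-DR arrays 3 of 12 correlated best with their own number. With the number as a replicate block 15673 probes passed in HF-DR minus HF-AL, 196 in HF-AL minus t=0 and 14929 in HF-DR minus t=0. It changed no call of a receptor probe, and Npr3 probe 3 kept -3.18. The dim Npr1 probe and the low ligand signals limit what differences in them can be seen.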
